A study of Mus musculus with 4 samples.

Results

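The genes described here carry cytokine signals from the surface of a T cell to its nucleus: receptor chains, Janus kinases (JAKs), STAT transcription factors, and the suppressors of cytokine signalling (SOCS) and other regulators that limit the pathway. Of 37 listed genes, 36 had at least 1 probe set that the array annotation assigns to that gene alone, 88 probe sets in all, and Il2rg was not analysed here. The whole table held probe sets for 18193 such genes. After a filter on dim probe sets, 35 members with 74 probe sets were kept, among 10211 genes with 22518 probe sets. Unless stated, a member's values are those of its brightest kept probe set. Il9r, a receptor chain that read 2.4 and 3.9 on the wild-type arrays and 3.4 and 4.7 on the knockout arrays, was not kept.

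A cytokine brings receptor chains together, the JAKs bound to their tails phosphorylate them, and STATs that dock there are phosphorylated and enter the nucleus. SOCS proteins and Cish are induced by many of the same STATs and close a negative feedback loop. In naive CD4 T cells, interleukin 7 and contact with self-antigen maintain survival, and receptors for interleukins 6, 4 and 21 and for interferons shape later differentiation.

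The cells were naive CD4 T cells, freshly isolated and sorted as CD4+ CD62L+ CD44-, from mice 10 to 11 weeks old. All mice were homozygous for a floxed Fur gene, which encodes furin, a protease that cuts precursor proteins to their mature forms. The knockout group also carried CD4-cre, a Cre recombinase driven from the CD4 promoter and active in T cells, and the wild-type group was littermates without Cre, so effects of Cre itself and of the deletion cannot be told apart. Each group had 2 Affymetrix Mouse 430 2.0 arrays, numbered 1 and 2, and nothing in the labels says whether arrays of a group came from separate or pooled animals. P-values therefore measure only the spread between these arrays, which may be technical, and their number limits the precision.

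The T cell markers Cd3e, Cd3d, Cd3g, Cd4, Cd5 and Cd28 were bright on all arrays, with summed signals from 41606.3 to 95387.9. The single Furin probe set read 435.1 and 343.9 in wild type and 391.4 and 446.9 on the arrays labelled knockout. It may lie outside the deleted part, so it checks neither the deletion nor the labels, and directions below are those of the arrays as labelled. Arrays of the same number resembled each other more than arrays of the same group. The bacterial hybridisation controls had a geometric mean signal of 3819.2 and 3274.5 on wild-type and knockout arrays 1, against 22278.2 and 18534.1 on arrays 2, and 78.7% of the variance lay on a principal component that separated the numbers. The Gapdh 3′ to 5′ signal ratio, which rises as RNA is degraded or its copying is incomplete, was 4.09 and 3.35 on wild-type and knockout arrays 1 and 0.905 and 0.934 on arrays 2. Its part in the disagreements between numbers and between probe sets was not tested. Every comparison is therefore also given within each number. Differences are knockout minus wild type on the log2(signal + 15.3) scale, which understates changes of dim probe sets. Where 2 differences follow a gene, the first is within arrays numbered 1 and the second within arrays numbered 2.

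STAT dimers are known to bind the palindrome TTCNNNGAA, which reads the same on both strands, and STATs are known to induce several of these genes. Promoter stretches of 4 members are shown for that reason: Socs3 and Il15ra, which differed most between the groups, and Ifnar2 and Cish, which also hold the motif. It was searched in RefSeq windows from 250 bases before to 50 bases after each gene's start, in assembly GRCm38.p6. Of 27 members matched there, 4 held the motif (14.8%), against 9.55% of all 27025 genes in the table, and Ifnar1 is the member not shown. The stretches run 5′ to 3′ on the gene's strand, end just before the start except for Cish, and have the motif in capitals; a match here is a description, not a binding site.
Socs3, chr11:117969367-117969616, minus strand: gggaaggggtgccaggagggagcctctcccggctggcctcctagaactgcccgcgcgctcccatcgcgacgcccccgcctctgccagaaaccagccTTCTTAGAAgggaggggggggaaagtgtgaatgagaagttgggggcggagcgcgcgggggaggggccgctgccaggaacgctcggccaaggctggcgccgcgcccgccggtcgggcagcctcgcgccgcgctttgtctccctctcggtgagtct
Ifnar2, chr16:91372533-91372782, plus strand: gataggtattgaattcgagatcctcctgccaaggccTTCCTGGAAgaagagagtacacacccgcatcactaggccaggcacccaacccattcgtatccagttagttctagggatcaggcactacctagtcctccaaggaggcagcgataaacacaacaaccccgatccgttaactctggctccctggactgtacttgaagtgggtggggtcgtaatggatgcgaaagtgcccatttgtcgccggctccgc
Il15ra, chr2:11705043-11705292, plus strand: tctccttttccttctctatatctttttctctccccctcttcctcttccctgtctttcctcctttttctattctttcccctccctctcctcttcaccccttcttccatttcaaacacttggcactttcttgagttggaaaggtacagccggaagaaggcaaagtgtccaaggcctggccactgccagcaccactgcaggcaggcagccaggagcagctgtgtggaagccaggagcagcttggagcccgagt
Cish, chr9:107296654-107296683, plus strand: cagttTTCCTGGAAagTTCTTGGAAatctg
Socs3 and Ifnar2 had 1 match each before the start, and Il15ra had none in its 2 windows. Cish, with 2 matches in the 30 bases shown at its start, differed by -0.02.

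Across the members, Socs3 and Il15ra were the genes with the largest differences, both higher in the knockout-labelled arrays. Limma without a block called 0 of 74 member probe sets at a threshold of 0.05 after Benjamini-Hochberg adjustment over the whole table, of which it called 0%. The smallest adjusted p of a member was 0.99999, and 3 member probe sets had an unadjusted p under 0.05 (0.644% of all probe sets did). This fit counts the gap between array numbers as spread, so its 0 calls do not show that the groups are alike. Even Jun, with a 26.3-fold ratio of knockout to wild-type means, had an adjusted p of 0.888 in limma without a block. With the array number as a block, limma called 0 member probe sets (0.0266% of all), the smallest adjusted p being 0.382, and 10 had an unadjusted p under 0.05 (8.42% of all). With both the block and a trended variance prior, limma called 4 member probe sets higher, 3 of Socs3 and 1 of Il15ra, where 0.795% of all probe sets were called higher. It called 1 lower, of Il17ra, where 0.36% of all were called lower. Both blocked fits have 1 residual degree of freedom.

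By direction alone, 15 of 35 members (42.9%) were higher within both array numbers, where 27.7% of all kept genes were. Another 7 were lower within both (27.2% of all kept genes), and 13 were mixed. Within arrays numbered 2, 25 of 35 members were higher (48% of all kept genes), and within arrays numbered 1 it was 18 of 35 (52.4%). The median difference was 0.08 over the members and -0.002 over all kept genes. In 7 members both knockout-labelled arrays lay above both wild-type arrays (8.69% of all kept genes), namely Socs3, Il15ra, Ifngr1, Jak3, Il21r, Il10ra and Ifnar2. In Il6ra and Stat5b both lay below (8% of all kept genes). Only Socs3 and Il15ra had at least 1.5-fold between the nearest arrays, which 0.637% of all kept genes had in this direction. In cells measured in bulk, fewer cells of a type and less RNA per cell cannot be told apart.

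**Figure D1:**
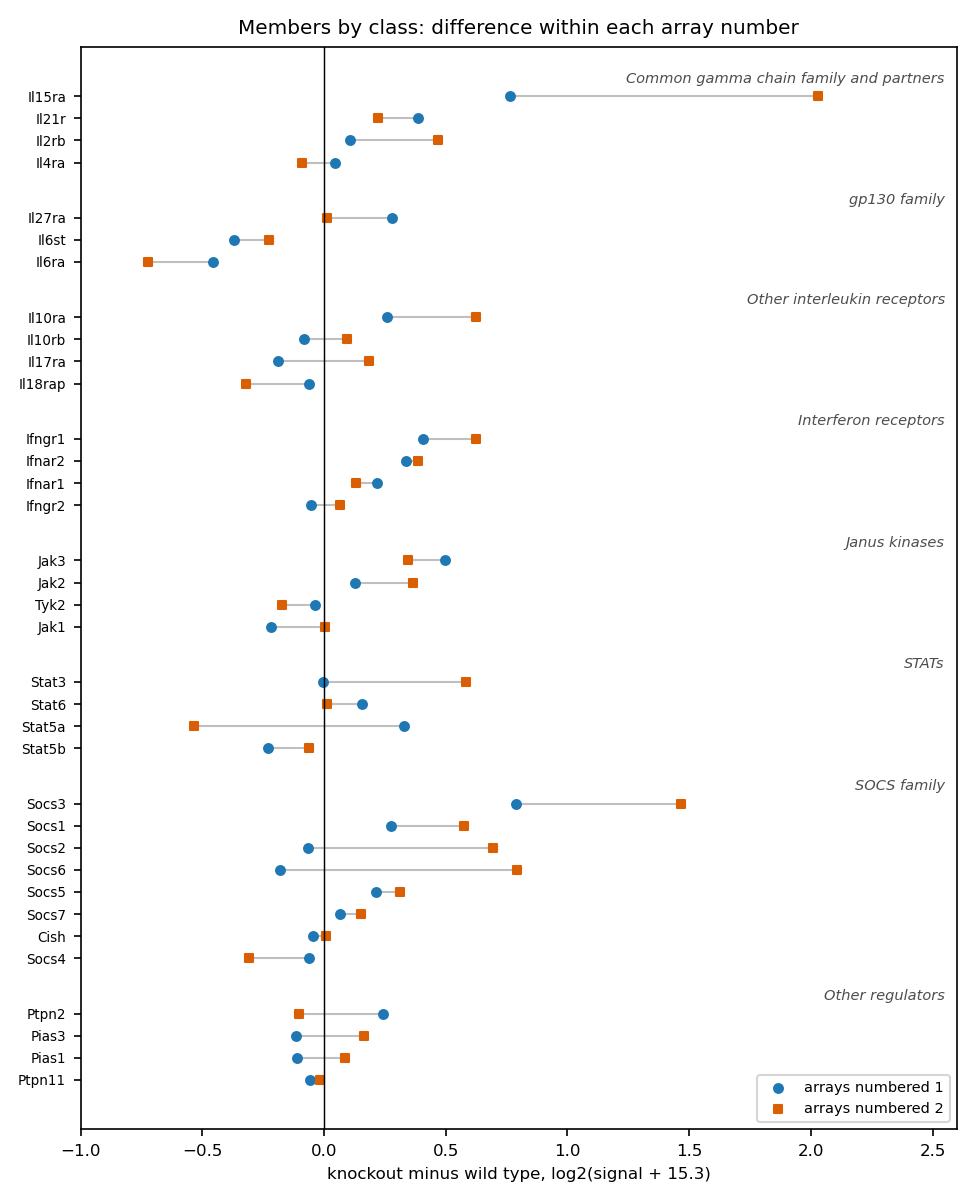
Knockout minus wild type on the log2(signal + 15.3) scale for the 35 kept members, by class; circles are the difference within arrays numbered 1 and squares within arrays numbered 2, and the grey line joins them. Il15ra and Socs3 lie farthest to the right in both array numbers, Il6ra is the farthest to the left on both, and most other members lie near 0.

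Of the SOCS family, 4 of 8 members were higher and 1 was lower within both array numbers (27.7% and 27.2% of all kept genes). The family had a median difference of 0.28 (medians 0.01 and 0.44 within the numbers). Socs3 led it, and all 3 of its probe sets were higher within both. The brightest Socs3 probe set, 1455899_x_at, had signals of 5109 and 3962.3 in wild type and 8847.6 and 10987.6 in knockout, or 4535.6 ± 811 against 9917.6 ± 1513 (SD, n = 2). The groups did not overlap, and knockout over wild type was 1.73-fold within arrays 1 and 2.77-fold within arrays 2. The difference was 1.13 (SE 0.35, 95% interval 0.21 to 2.05; limma adjusted p = 0.99999, or 1.05e-05 with block and trended prior). The probe set 1456212_x_at gave 1940.3 and 1855.2 in wild type and 4418.7 and 4045.4 in knockout, a fold of 2.28 and 2.18. The third, 1416576_at, gave 698 and 1830.7 in wild type and 1082.7 and 3217.2 in knockout, where the groups overlapped but each knockout array exceeded the wild-type array of its number, by 1.55-fold and 1.76-fold. The suffix x marks probe sets with probes that can match other transcripts, and the last probe set does not carry it.

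Socs1, an inhibitor that binds JAKs directly, had signals of 162.4 and 381.3 in wild type and 199.8 and 574.9 in knockout. The groups overlapped, the gap between array numbers being wider than that between genotypes, and the differences were 0.28 and 0.57. With 1 array left out, which mixes genotype with array number, its overall difference of 0.42 (SE 0.68) turned to -0.15 without wild-type array 1 and to -0.30 without knockout array 2. Cish, a STAT5 target that dampens interleukin 2 signalling, had signals of 973.9 and 895.9 in wild type and 942.4 and 901.9 in knockout. The 4 arrays overlapped, and the difference of -0.02 had a 95% interval from -0.85 to 0.81, or -0.49 to 0.45 with the array number as a block.

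The other SOCS genes were split, and several gave different directions from different probe sets. Socs5 was at 498.5 and 278.5 in wild type and 581.2 and 349.4 in knockout, higher by 0.22 and 0.31, but its second probe set was lower by 0.11 and 0.23, and the first turned to -0.14 without wild-type array 2 and to -0.09 without knockout array 1. Socs4 was lower in its brightest probe set (-0.06 and -0.31) and higher within both numbers in 2 others, over a range of overall differences from -0.18 to 0.47. Socs2, which limits growth hormone and interleukin signals, differed by -0.07 and 0.69, Socs6 by -0.18 and 0.79, and Socs7 by 0.07 and 0.15. For Socs2 and Socs6 the arrays numbered 1 and 2 thus disagreed on the direction.

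**Figure D2:**
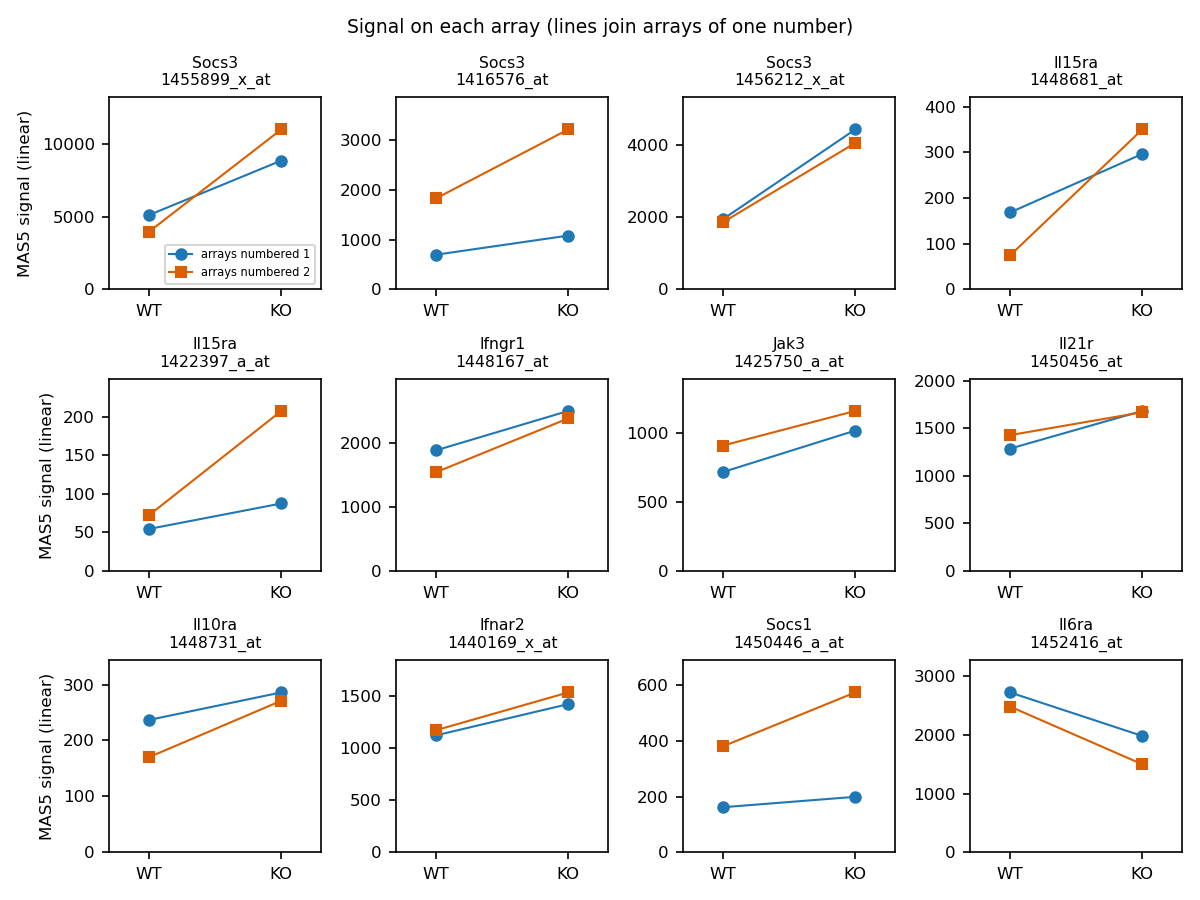
MAS5 signal on a linear axis that starts at 0, for 12 probe sets of 9 members on the wild-type (WT) and knockout-labelled (KO) arrays; a line joins the arrays of one number, and each point is 1 array. All 3 Socs3 and both Il15ra probe sets slope upward in both array numbers, and Il6ra slopes downward in both; in Socs1 and in Socs3 probe set 1416576_at the lines of the numbers lie far apart.

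Among receptors of the common gamma chain family, 3 of 4 kept members were higher and 0 lower within both numbers (27.7% and 27.2% of all kept genes). This count uses the brightest probe sets, with a median of 0.30. Il15ra, the high-affinity chain that presents interleukin 15 to neighbouring cells, was highest. Its brightest probe set, 1448681_at, had signals of 168.4 and 74.4 in wild type and 296.6 and 350.3 in knockout, or 121.4 ± 66.5 against 323.4 ± 38 (SD, n = 2). The groups did not overlap, and the fold was 1.76 within arrays 1 and 4.71 within arrays 2. The difference was 1.40 (SE 0.47, 95% interval 0.18 to 2.61; limma adjusted p = 0.99999, or 0.0135 with block and trended prior), and 0.88 without wild-type array 2. The other probe set, 1422397_a_at, gave 54.5 and 72.4 in wild type and 87.6 and 207.8 in knockout, again without overlap, and was not called in any of these fits (adjusted p = 0.285 in limma with block and trended prior).

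Il21r, the receptor chain for interleukin 21, had signals of 1287.1 and 1429.3 in wild type and 1684.3 and 1669.9 in knockout, without overlap. It differed by 0.38 and 0.22, an overall difference of 0.30 (SE 0.32). Il2rb, the chain shared by the receptors for interleukins 2 and 15, had 278.8 and 603.2 in wild type and 301.5 and 841.4 in knockout. Its groups overlapped, with differences of 0.11 and 0.47. Il4ra, which also serves interleukin 13, had 1628 and 2898.7 in wild type and 1680.1 and 2720.1 in knockout. It differed by 0.05 and -0.09, and with 1 array left out its overall difference of -0.02 became 0.39 without wild-type array 2 and 0.32 without knockout array 1. The other 2 kept Il4ra probe sets were lower within both numbers, at -0.09 and -0.09 and at -0.02 and -0.42. Il4ra and Il21r are adjacent protein-coding genes on chromosome 7.

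In the gp130 family both chains that receive interleukin 6 were lower within both numbers in their brightest probe sets. Il6ra, the chain that binds interleukin 6, had signals of 2719.9 and 2479.3 in wild type and 1979.2 and 1498 in knockout. The groups did not overlap, the differences were -0.46 and -0.72, and the overall difference was -0.59 (SE 0.34, 95% interval -1.48 to 0.31; limma adjusted p = 0.0768 with block and trended prior), and -0.39 without knockout array 2. Its second probe set was lower too, by 0.24 and 0.44. Il6st, the signalling chain gp130 itself, had 5628.6 and 3638 in wild type and 4352.7 and 3108.3 in knockout, where the groups overlapped. It differed by -0.37 and -0.23, and the overall difference of -0.30 became 0.02 without wild-type array 1. Its 4 probe sets ranged from -0.51 to -0.10, but 2 of them were mixed, at -0.92 and 0.06 and at -0.37 and 0.16. Il27ra, which pairs with gp130 for interleukin 27, differed by 0.28 and 0.01.

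The other interleukin receptors had no common direction, with a median of 0.002. Il10ra, the ligand-binding chain of the interleukin 10 receptor, had 236.7 and 170.2 in wild type and 285.9 and 271 in knockout, without overlap, and differed by 0.26 and 0.63; the overall difference of 0.44 became 0.22 without wild-type array 2 and 0.66 without wild-type array 1. The filter removed the other Il10ra probe sets, 1437808_x_at at -0.82 and -0.55 and 1456173_at at 0.09 and -0.35. The partner chain Il10rb had 1717 and 1822.7 in wild type and 1619.6 and 1945.8 in knockout, with differences of -0.08 and 0.09. A second Il10rb probe set, 1429959_at, was lower within both numbers, by 0.59 and 0.75. Il18rap, the accessory chain for interleukin 18, differed by -0.06 and -0.32.

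Il17ra, the chain common to several receptors of the interleukin 17 family, had a pair of probe sets that differed from each other. The brightest, 1420905_at, had 7306.9 and 7612.2 in wild type and 6411 and 8654.7 in knockout, an overall difference of -0.002. The other, 1420904_at, had 2001.1 and 1074 in wild type and 640.9 and 824.9 in knockout, without overlap. It was lower by 1.62 and 0.37, and without a block the overall difference had a 95% interval from -2.15 to 0.15 (SE 0.44; limma adjusted p = 0.99999, or 0.0167 with block and trended prior). The annotation gives both the same transcript accession, and which of the values describes the gene is not settled by these data.

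Of the interferon receptor chains, 3 of 4 were higher and 0 lower within both numbers (27.7% and 27.2% of all kept genes). This count uses the brightest probe sets, with a median of 0.27. Ifngr1, the ligand-binding chain for interferon gamma, had signals of 1882.5 and 1540.9 in wild type and 2498.1 and 2381.6 in knockout, or 1711.7 ± 242 against 2439.8 ± 82.4 (SD, n = 2). The groups did not overlap, with differences of 0.41 and 0.62 and an overall difference of 0.51 (SE 0.33; limma adjusted p = 0.154 with block and trended prior). Its partner Ifngr2 had 218.1 and 590.7 in wild type and 209.4 and 618.8 in knockout, an overall difference of 0.01. A second Ifngr2 probe set disagreed between numbers, at 0.47 and -1.87.

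Both chains of the type I interferon receptor were higher within both numbers in their brightest probe sets. Ifnar2 had 1124.5 and 1174.1 in wild type and 1424.9 and 1537.1 in knockout for its brightest probe set, without overlap, and differed by 0.34 and 0.38. That probe set carries the suffix x. Its other 2 kept probe sets were at 0.29 and -0.13, the last being lower within both numbers. Ifnar1 had 1239 and 1015.3 in wild type and 1441.4 and 1113.4 in knockout, with differences of 0.22 and 0.13. Its other kept probe set, 1442222_at, had 1242.9 and 748.2 in wild type and 982.2 and 833.4 in knockout. There the numbers disagreed, at -0.33 and 0.15. Averaged over kept probe sets, the differences were 0.51 for Ifngr1, 0.17 for Ifnar2, 0.04 for Ifnar1 and -0.35 for Ifngr2. Ifnar2, Il10rb, Ifnar1 and Ifngr2 are consecutive protein-coding genes on chromosome 16, and their overall differences, in that order, were 0.36, 0.005, 0.17 and 0.01.

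**Figure D3:**
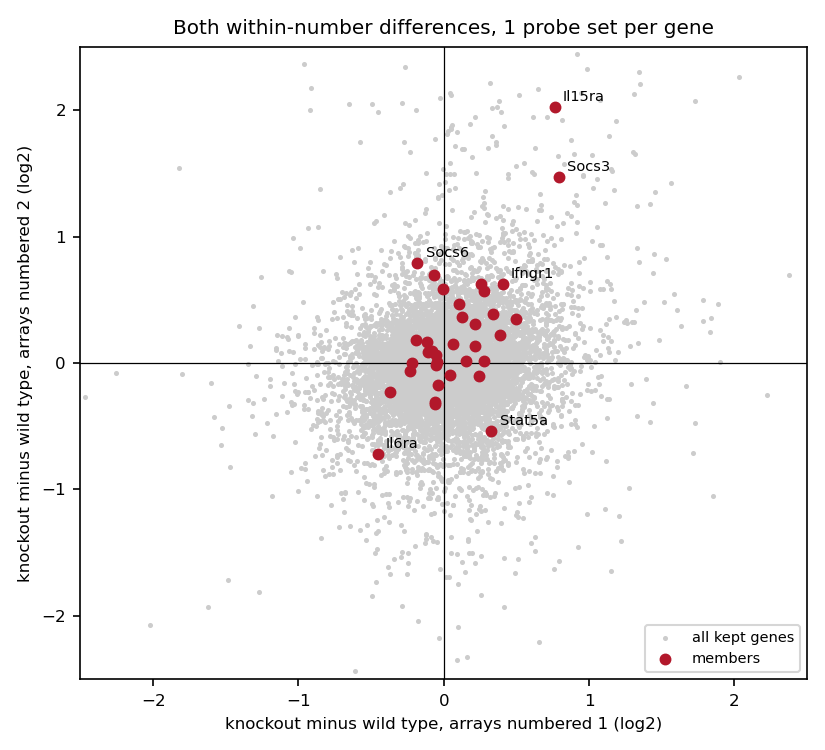
Knockout minus wild type on the log2(signal + 15.3) scale within arrays numbered 1 (horizontal) and numbered 2 (vertical), 1 probe set per gene; grey points are all 10211 kept genes and red points the 35 members, and 31 genes outside ±2.5 are not drawn. Il15ra and Socs3 stand at the edge of the grey cloud in the upper right, Il6ra lies in the lower left, and most members lie inside the cloud.

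Among the kinases, Jak3, which is bound to the common gamma chain, had signals of 719.2 and 912 in wild type and 1020.7 and 1163.7 in knockout. The groups did not overlap, and it was higher by 0.50 and 0.35 (SE 0.34 around 0.42); the overall difference was 0.25 without wild-type array 1. Jak2 was higher by 0.13 and 0.37 with overlapping groups, and Tyk2, which serves type I interferon and interleukin 12 receptors, lower by 0.04 and 0.17. Jak1, the partner kinase in most of these receptors, had 10445.5 and 13334.9 in wild type and 8979.8 and 13358.8 in knockout. It differed by -0.22 and 0.003, and its overall difference of -0.11 became 0.07 without wild-type array 2 and 0.18 without knockout array 1. The other kept Jak1 probe sets were lower within both numbers. The dimmest, 1433804_at, was lower by 1.15 and 0.41, with 652.1 and 364.9 in wild type and 285.3 and 271.4 in knockout. In 1433803_at, with 6333 and 10071.8 in wild type and 6162.7 and 8722.4 in knockout, the differences were -0.04 and -0.21.

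The STATs had no common direction, with 1 of 4 higher and 1 lower within both numbers and a median of -0.01. Stat5b, which carries interleukin 2 and 7 signals with Stat5a, had 3287.5 and 3391.3 in wild type and 2796.6 and 3244.3 in knockout. It was lower by 0.23 and 0.06 without overlap, and its overall difference of -0.15 became -0.04 without knockout array 1 and -0.25 without knockout array 2, though a second probe set turned the mean of both to 0.07. Stat5a differed by 0.33 and -0.54, Stat6, the interleukin 4 mediator, by 0.16 and 0.01, and Stat3, which acts downstream of gp130, by -0.004 and 0.58. All 4 Stat3 probe sets had overall differences above 0, from 0.18 to 0.52, and 2 of them were higher within both numbers, among them 1460700_at by 0.19 and 0.27. Stat5b, Stat5a and Stat3 follow each other on chromosome 11 with no other protein-coding gene between them, and their overall differences were -0.15, -0.10 and 0.29.

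The remaining regulators lay nearest to 0 in their brightest probe sets, from -0.04 to 0.07. Ptpn11, the phosphatase SHP-2, differed by -0.06 and -0.02. Ptpn2, a phosphatase that acts on JAKs and STATs, differed by 0.24 and -0.10, Pias1 by -0.11 and 0.09 and Pias3 by -0.11 and 0.16. In this class 0 of 4 were higher and 1 was lower within both numbers. Some dimmer probe sets lay farther from 0, with 1455486_at of Pias1 at 0.26 and 0.34 and 1421646_a_at of Pias3 at -0.42 and -0.10. Of 3 kept Ptpn2 probe sets, 2 were higher within both numbers.

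Several probe sets were available for 25 members, and in 11 of these the overall difference changed sign between them. In Ifnar2, Socs4 and Socs5 1 probe set was higher and another lower within both numbers. Socs3, Il15ra, Il2rb and Stat6 were higher, and Il6ra lower, in all of their kept probe sets and both numbers.

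**Figure D4:**
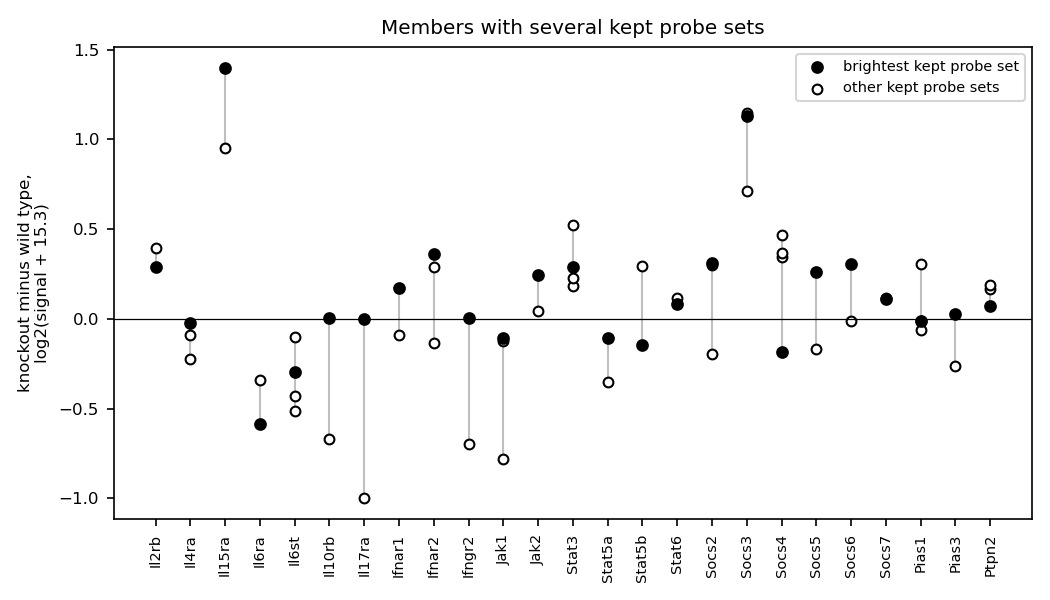
Overall difference, knockout minus wild type on the log2(signal + 15.3) scale, of every kept probe set of the 25 members with more than 1; the filled circle is the brightest, open circles are the others, and the line spans their range. The probe sets of Socs3 and Il15ra all lie above 0.7, whereas Il17ra, Il10rb, Ifngr2 and Jak1 have 1 probe set from -0.67 down to about -1 and another near 0.

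Of 74 related pathway genes from a longer list, 36 were kept. Of these 15 were higher and 11 lower within both numbers (27.7% and 27.2% of all kept genes), with a median of 0.02. In limma 0 passed without and 0 with the block, and 2, Il12rb1 and Usp18, passed as higher with block and trended prior (0.795% of all probe sets). Usp18, which restrains type I interferon receptor signalling, had 1413.2 and 1433.6 in wild type and 2710.4 and 2199.9 in knockout, and Stat2 268.1 and 195.6 against 416 and 353.6. Il12rb1, which serves the receptors for interleukins 12 and 23, had 39.4 and 76.2 against 134.6 and 217.8, and Bcl3, an NF-kappaB cofactor, 626.2 and 540.7 against 946.3 and 989.2. In these 4 the groups did not overlap (8.69% of all kept genes in this direction), and Csf2ra was higher by 0.63 and 0.27 with overlap. These genes were named for large differences within both numbers, a choice that favours groups without overlap.

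In the opposite direction, Il7r, the receptor for the survival cytokine interleukin 7, had 18091.1 and 19444.9 in wild type and 15154 and 15938.5 in knockout, lower by 0.26 and 0.29. Il2ra, the inducible chain of the interleukin 2 receptor, had 544.9 and 598.5 against 361.9 and 491.4, and Il17rb 82.7 and 89.4 against 58.3 and 56.4. These 3 were lower without overlap (8% of all kept genes) and were named by the same rule. Pias4 and Il18r1 were lower by 0.41 and 0.22 and by 0.16 and 0.19, with overlap. Of 14 listed ligands, 13 had a probe set and 1, Osm, was kept, at 0.26 and 0.07. Among 10 cytokine-induced target genes, 3 were higher and 2 lower within both numbers (27.7% and 27.2% of all kept genes).

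Markers of other cell types were also higher in the knockout-labelled arrays, by more within arrays numbered 2. Of 12 myeloid markers 11 were higher and 0 lower within both numbers, with medians of 0.65 and 1.66 and summed signals of 1399.7 and 4151.8 in wild type and 2158.3 and 14490.1 in knockout. Of 9 B cell markers 7 were higher and 0 lower, with medians of 0.20 and 1.63 and summed signals of 1016.5 and 4418.9 against 1508.3 and 15997.6. No listed marker lay below 15.3 on all arrays, but the marker lists include genes that the filter did not keep. Csf3r, the receptor for the neutrophil growth factor G-CSF, was higher by 0.06 and 3.42. The Socs3 probe set 1455899_x_at differed by 0.79 and 1.47, 1416576_at by 0.62 and 0.81, and 1456212_x_at by 1.18 and 1.12. The brightest probe set of Il15ra differed by 0.76 and 2.03, so all of these but 1456212_x_at were also higher by more within arrays numbered 2. The part of such cells in the member differences was not tested.

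Of 10 activated and memory genes, which include the member Il2rb, 7 were higher and 2 lower within both numbers, with medians of 0.63 and 0.37 and summed signals of 7248.3 and 7058.1 in wild type and 9927.4 and 8805.3 in knockout. Among them the chemokine Ccl5 was higher by 2.03 and 2.27, S100a4 by 1.36 and 2.84 and the chemokine receptor Cxcr3 by 1.32 and 1.65. The 2 lower genes were Cd44 (-0.38 and -0.18) and Ahnak (-0.63 and -0.71), and Itgb1 was mixed (-0.83 and 0.10). The part of activated or memory cells in the member differences was not tested. Of 9 CD8 T and NK cell genes, 7 of them kept, 5 were higher and 2 lower (4083.2 and 3794.7 against 4640.2 and 4155). Of 6 regulatory T cell genes, which include Il2ra, 0 were higher and 4 lower (7043 and 6728.4 against 5665.5 and 6578.9). Of 5 naive-state genes 0 were higher and 3 lower, among these Il7r, already given above. Within both numbers 27.7% of all kept genes were higher and 27.2% lower. Of 4 erythroid and platelet genes 1 was higher and 2 lower, but only Alas2 was kept, and its direction was mixed. Jun and Fos, early-response transcription factors, were higher by 4.74 and 4.51 and by 3.67 and 4.37. Their relation to Socs3 was not tested.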

How the data were processed

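The authors deposited intensities, 1 linear MAS5 signal for each probe set and array. The submitters' processing notes name MAS5; no version or setting is stated in the sources used here. Each array's trimmed mean (2% off each end) is 500.003. Without detection calls, how far a signal lies above background is unknown. Of 45101 probe sets 64 controls were left out; 34945 of the rest had 1 gene symbol, updated through Entrez identifiers to RefSeq (GRCm38.p6) for 34741. Signals were transformed as log2(signal + 15.3), 15.3 being the 25% quantile of all values. Probe sets with a mean log2 value above the median of these means were kept. The group comparison used limma 3.58.1 (lmFit, then eBayes; R 4.3.3; two-sided, no block) over all kept probe sets, with Benjamini-Hochberg adjustment and a threshold of 0.05. The fits were run on simulated data, where only the size of the estimated differences was required to match, so this does not test the calls. Members and lists were chosen with earlier results of these data known. Members were named with all 4 signals by rule: up to 3 per class and direction differing by at least 0.2 within both array numbers, any differing by 1 or more within a number or 1.5-fold between nearest arrays, and fixed reference members. Related genes named were the 5 per direction whose smaller within-number difference was largest. Other probe sets, Il2rb, Il10rb, Il17ra, Ifngr2, Ifnar1, Csf3r, Ccl5, S100a4, Cxcr3, Cd44, Ahnak, Itgb1, Jun and Fos were given signals or values after these were seen, as were the single differences of other members. Alternatives covered the pseudocount, filter, normalization, prior, array number as a block, probe set choice, and each array left out.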

Additional observations from a re-analysis of the deposited data

How the results depend on the processing

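Without a block 0 probe sets, member or other, passed limma under every alternative that kept all arrays. The alternatives were pseudocounts of 1 or 66.6, no filter or one at the 75th percentile, and quantile normalization. They also included median centring, a trended prior, and an adjusted p under 0.10. All of these fits count the gap between array numbers as spread, so the 0 does not show that the groups are alike. The replicate block gave 6 over all probe sets and 0 among members, and 260 and 5 with a trended prior, the members being 3 probe sets of Socs3 and 1 each of Il15ra and Il17ra. Array numbers are shared only as numbers: the deviations of arrays with one number from the mean of each group had a correlation of 0.80 over probe sets, and 7791 probe sets differed between numbers. The counts of members higher (10 to 18) and lower (6 to 9) within both numbers stayed within 1.5-fold of 15 and 7. They have no value with an array left out. The count of 10 came with the filter at the 75th percentile, which keeps fewer members. Il15ra, Il10ra, Socs1 and Socs5 have no value under that filter. Members with both knockout-labelled arrays below both wild-type arrays went from 2 to 1 with median centring, an alternative for this count chosen after seeing the data; the cause was not tested. Of 131 values of 15 named members under alternatives that keep all arrays, 129 kept their direction. Many of these could not turn, because the block, the trended prior and the filters leave a probe set's difference unchanged. Stat5b became 0.073 with the mean of its probe sets, which differ in sign, and Cish 0.0098 with quantile normalization. Leaving out an array, which confounds genotype with number, turned 6 members in direction: Socs1 ranged from -0.30 to 1.15, Socs5 from -0.14 to 0.67, Jak1 from -0.39 to 0.18, Il4ra from -0.44 to 0.39, Cish from -0.078 to 0.041 and Il6st from -0.61 to 0.016. Socs3 ranged from 0.95 to 1.31, Il15ra from 0.88 to 1.91, Il6ra from -0.79 to -0.39, Jak3 from 0.25 to 0.59, Il10ra from 0.22 to 0.66 and Stat5b from -0.25 to -0.04.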
